A study of Mus musculus with 6 samples.

Results

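The 10 genes described here are the Notch receptors Notch1, Notch2 and Notch3, the ligands Dll1, Dll3, Jag1 and Jag2, and the basic helix-loop-helix genes Hes1, Hes6 and Hey1. They were chosen by name, and all 10 were found among the 55385 genes of the deposited table. Mouse Neuro2A (N2A) neuroblastoma cells, labelled as neuroblasts of the brain, were transfected with si-circCpsf6, a small interfering RNA (siRNA) against the circular RNA circCpsf6 (n = 3), or with si-NC, the comparison siRNA (n = 3), both at 100 nM. The labels give the cell line but no batch and no time after transfection. Nothing in them tells whether the 3 libraries of a group came from different dishes, so each p-value speaks for library-to-library variation only. The level of the circle itself was not analysed here. The question for each gene was whether its mRNA level differed after transfection of the siRNA against the circle.

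Notch signalling passes between touching cells. A Delta-like or Jagged ligand on the surface of 1 cell pulls on a Notch receptor of its neighbour, ADAM proteases and then gamma-secretase cut the receptor, and the freed intracellular domain enters the nucleus, where it joins RBPJ and a Mastermind-like co-activator at target genes. The HES and HEY genes are the best known of these targets. Their products are repressors that hold back proneural factors, and in developing neural tissue high Notch signalling keeps progenitors from becoming neurons. Hes6 is the exception in the family: in mouse it opposes Hes1 and goes with neuronal differentiation.

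The values are FPKM, fragment counts normalised to transcript length and to sequencing depth, which allow levels of different genes to be set side by side. They were deposited rounded to 2 decimals and without counts, so the depth behind a value is unknown, and a value such as 0.03 carries a large rounding error. Each library had between 12671 and 13080 genes at 1 FPKM or more, and log2 values correlated at 0.936 to 0.971 between libraries of a group and at 0.919 to 0.949 between the groups, across genes that are not independent replicates. Of 14 markers of sympathetic neuroblasts, 12 passed a filter at a mean of 1 FPKM, among them Hand2 at 119.5 ± 2.95 FPKM in si-circCpsf6 and 167 ± 10.9 FPKM in si-NC (SD, n = 3 each). The 14 summed to 969.9 to 1440.5 FPKM in si-circCpsf6 and 2059 to 3150 FPKM in si-NC. Most of that gap was the granin gene Chgb, and without it the sums were 740.2 to 824 FPKM in si-circCpsf6 and 985 to 1194 FPKM in si-NC. In 6 of these 12 markers all si-circCpsf6 values lay below all si-NC values, as in 14% of all tested genes, and Chga, which encodes a granule protein, fell (log2 fold change -1.1, limma adjusted p = 0.0335). The fold change was above 0 in 4 of the 12, namely Gata2, Gata3, Stmn2 and Th, all with overlapping groups. In bulk RNA fewer cells of a type and less RNA per cell cannot be told apart, and the part of this shift in the results below was not tested.

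The pathway core was at low levels, and 4 of the 10 genes passed the filter at a mean of 1 FPKM over the 6 libraries. In descending order of that mean the genes were Hes6 (9.54 FPKM), Jag2 (6.24 FPKM), Hey1 (2.32 FPKM) and Dll1 (1.16 FPKM), followed below the filter by Notch2 (0.89 FPKM), Dll3 (0.36 FPKM), Notch3 (0.35 FPKM), Jag1 (0.17 FPKM), Notch1 (0.12 FPKM) and Hes1 (0.038 FPKM). Hes6 stood above 83.0% of the 30181 genes with any value above 0, and Notch1 above 34.5%. Of neighbours in this order only Jag2 and Hey1 were apart over all 6 libraries, with every value of Jag2 above every value of Hey1. The other neighbouring pairs overlapped over the pooled libraries, although Hey1 was above Dll1 and Notch2 above Dll3 within each of the 6. Dll3 was above Notch3 in 3 of 6 libraries.

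The main test was limma on log2(FPKM + 1) over the 12974 genes that averaged 1 FPKM or more, of which 1.69% were called in either direction at a Benjamini-Hochberg adjusted p under 0.05. None of the 4 tested members was called by it. Hey1 and Hes6 had an unadjusted p under 0.05 in that test, as had 20.3% of all tested genes. In the authors' deposited table, 2 of the 10 members, Notch3 and Dll3, are marked as significant and higher, a mark that 2.01% of genes with any value above 0 carry. Both lie below the filter, and the members below it were examined in a second limma fit, chosen after the values were seen, on log2(FPKM + 0.1) over the 20539 genes that averaged 0.1 FPKM or more. That fit called 0.195% of genes higher, none of the members among them. The mean level was higher in si-circCpsf6 in 9 of the 10 members and lower in Notch2, and the groups were apart in 3 members. Among the 9, Notch1, Jag1 and Hes1 were near 0 with overlapping groups. In the main test the fold change was above 0 in all 4 tested members and in 6128 of 12974 tested genes. That count leaves out genes below the filter, for which no such share was taken. The groups were apart with si-circCpsf6 higher in 12.8% of the tested genes, and in 8.53% of genes with a mean of 0.1 to 1 FPKM.

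**Figure D1:**
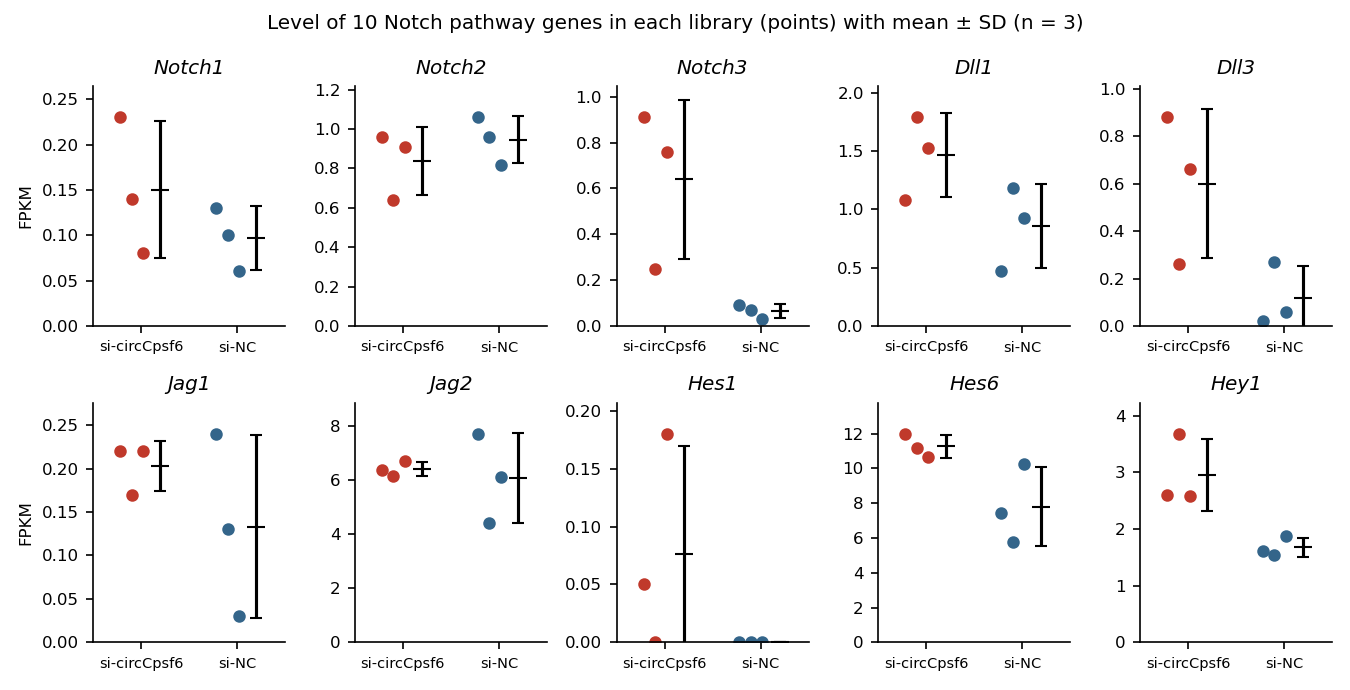
FPKM of each gene in every library (points, si-circCpsf6 in red and si-NC in blue) with the mean and SD of each group beside them (n = 3), each panel on its own linear axis from 0, where SD bars that would pass below 0 are cut. The 3 si-circCpsf6 points lie above all si-NC points for Notch3, Hes6 and Hey1, while the points of the other 7 genes overlap.

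Among the receptors Notch3 differed most between the groups. This receptor is best known from vascular smooth muscle and pericytes, and is also made by neural progenitors. Notch3 (ENSMUSG00000038146, chromosome 17, 32120820 to 32166852, minus strand, GRCm38) read 0.91, 0.25 and 0.76 FPKM in si-circCpsf6 replicates 1 to 3, against 0.09, 0.07 and 0.03 FPKM in si-NC replicates 1 to 3. All 3 si-circCpsf6 values were higher than all si-NC values, and the lowest of them, replicate 2, was 2.78 times the highest si-NC value. The means were 0.64 ± 0.35 FPKM in si-circCpsf6 and 0.063 ± 0.031 FPKM in si-NC (SD, n = 3 each), a ratio of 10.1. Notch3 was 1 of 5 members with a mean of 0.1 to 1 FPKM, and the groups were apart in this direction in 8.53% of the genes of that range.

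The authors' deposited table gives Notch3 a log2 fold change of 3.41 and a q-value of 0.00, which stands for less than can be shown at 2 decimals. In the limma fit on log2(FPKM + 0.1) its log2 fold change was 2.06 ± 0.51 (SE), with an unadjusted p of 0.00396, and it did not pass the test over all genes (adjusted p = 0.117). An exact two-sided permutation test of its 3 against 3 values gave p = 0.1, which is the smallest that this design allows. With each library left out in turn, the limma log2 fold change was between 1.77 and 2.53 and the adjusted p between 0.109 and 0.366. The highest of these fold changes was without si-circCpsf6 replicate 2, and no fit of this kind called Notch3.

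The sequence before the Notch3 start is shown because Notch3 had the highest ratio, together with that of Dll3, the other member marked in the authors' deposited table. Both are from RefSeq (GRCm38.p6) and hold 250 bases before and 50 after an annotated start, on the minus strand. The Notch3 window lies at chr17:32166841-32167140 and the Dll3 window at chr7:28301736-28302035. Capitals mark matches on either strand to CACNAG, the N box bound by HES repressors, and to CANNTG, the E box bound by proneural factors.
Notch3: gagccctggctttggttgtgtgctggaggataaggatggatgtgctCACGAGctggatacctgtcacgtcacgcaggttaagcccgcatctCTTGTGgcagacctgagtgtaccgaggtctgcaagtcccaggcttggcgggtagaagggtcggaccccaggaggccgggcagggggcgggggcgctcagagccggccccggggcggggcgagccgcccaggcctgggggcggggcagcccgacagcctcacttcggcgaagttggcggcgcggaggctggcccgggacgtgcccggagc
Dll3: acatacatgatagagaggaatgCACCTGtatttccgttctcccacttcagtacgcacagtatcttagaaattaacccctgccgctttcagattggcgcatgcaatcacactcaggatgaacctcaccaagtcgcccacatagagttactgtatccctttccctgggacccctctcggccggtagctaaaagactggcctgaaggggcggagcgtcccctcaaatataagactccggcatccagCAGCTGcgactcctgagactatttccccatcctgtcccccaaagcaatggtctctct

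The Notch3 window held 2 N boxes and 0 E boxes, and the Dll3 window held 0 N boxes and 2 E boxes. Of the 32851 windows of this length in the table, 42.5% hold an N box and 72.3% an E box, so such matches are common. TGGGAA, the core of the RBPJ site, was searched on both strands in the 10 windows found for 8 of the members (Hes6 and Dll1 have 2 each) and matched in 0 of them, against 25.6% of all windows. Hes1 and Hey1 had no window and were not searched. These counts say only which letters stand in the windows found.

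Notch2 was the most abundant of the 3 member receptors in every library. It read 0.96, 0.64 and 0.91 FPKM in si-circCpsf6 and 1.06, 0.96 and 0.82 FPKM in si-NC, and the groups overlapped. On log2(FPKM + 0.1) its log2 fold change was -0.17 ± 0.29 (SE; limma adjusted p = 0.821). Notch1, the receptor most studied in neural progenitors, was near 0, with 0.23, 0.14 and 0.08 FPKM in si-circCpsf6 and 0.13, 0.10 and 0.06 FPKM in si-NC. Those groups overlapped too (log2 fold change 0.32 ± 0.45, SE; limma adjusted p = 0.777).

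The groups were apart in the make-up of the mRNA of the 3 member receptors, Notch4 left out. Notch3 made up 37.0 ± 11% of the summed FPKM of Notch1, Notch2 and Notch3 in si-circCpsf6 and 5.51 ± 1.96% in si-NC (SD, n = 3 each), and its lowest share in si-circCpsf6, 24.3% in replicate 2, was above the highest in si-NC, 7.03%. The share of Notch2 was 53.3 ± 8.29% in si-circCpsf6 and 86.0 ± 3.75% in si-NC, also apart. Shares of one sum depend on each other, so this is not a second result beside that of Notch3. The sum itself was 2.10, 1.03 and 1.75 FPKM in si-circCpsf6 and 1.28, 1.13 and 0.91 FPKM in si-NC, so the groups overlapped in the total while their shares were apart. An exact permutation test of 3 against 3 libraries cannot go below 0.1 for such a share, and these are shares of mRNA, not of receptor protein.

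Notch4, a receptor best known from endothelium and not among the 10 members, was also read. It stood at 1.5, 0.81 and 1.10 FPKM in si-circCpsf6 and at 0.54, 0.38 and 0.58 FPKM in si-NC, with the groups apart, and the log2 fold change on log2(FPKM + 0.1) was 1.02 ± 0.33 (SE; limma adjusted p = 0.202). With it included, the sum of all 4 receptors was 2.76 ± 0.88 FPKM in si-circCpsf6 and 1.61 ± 0.19 FPKM in si-NC (SD, n = 3 each). The lowest si-circCpsf6 sum (1.84 FPKM, replicate 2) was just above the highest si-NC sum (1.82 FPKM, replicate 1). Of this sum Notch3 made up 21.8 ± 7.18% in si-circCpsf6 and 3.86 ± 1.61% in si-NC. Notch2 made up 31.1 ± 4.12% in si-circCpsf6 and 59.0 ± 4.32% in si-NC, and both shares were apart, though again not independent of each other. Notch4, the highest of the 4 in every si-circCpsf6 library, made up 41.4 ± 2.72% there. Its share was 31.3 ± 7.02% in si-NC, and the groups overlapped.

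**Figure D2:**
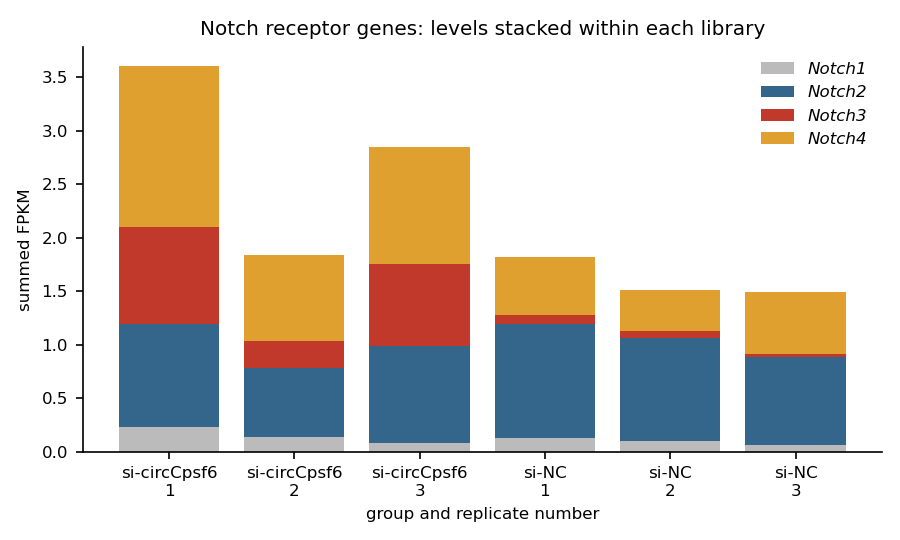
Stacked FPKM of Notch1, Notch2, Notch3 and Notch4 in each library, the 3 si-circCpsf6 replicates at the left and the 3 si-NC replicates at the right, with bars from 0. The Notch3 part is 0.25 to 0.91 FPKM in si-circCpsf6 and 0.03 to 0.09 FPKM in si-NC, while the Notch2 part is 0.64 to 0.96 FPKM in si-circCpsf6 and 0.82 to 1.06 FPKM in si-NC.

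Markers of cells in which Notch3 and Notch4 are prominent were read beside them. The sum of 5 endothelial markers was 1.59 to 3.22 FPKM in si-circCpsf6 and 0.80 to 1.22 FPKM in si-NC. Of these, Cdh5, Kdr and Tie1 were at most 0.10 FPKM in any library. Pecam1 read 0.67 to 2.04 FPKM in si-circCpsf6 and 0.59 to 1.06 FPKM in si-NC, with overlapping groups. Tek read 0.42 to 1.47 FPKM in si-circCpsf6 and 0.14 to 0.21 FPKM in si-NC, with the groups apart. A list of 10 mural cell markers, drawn up after Notch3 had been seen, summed to 22.9 to 31.8 FPKM in si-circCpsf6 and 5.03 to 14.2 FPKM in si-NC. The most abundant of the 10 in every library was Mcam, a cell adhesion gene that rose to 17.07 to 23.62 FPKM in si-circCpsf6, against 3.48 to 7.71 FPKM in si-NC (limma adjusted p = 0.0328). Pdgfrb, a growth factor receptor of pericytes and fibroblasts, rose as well, to 4.24 to 4.88 FPKM in si-circCpsf6 against 0.35 to 1.57 FPKM in si-NC (limma adjusted p = 0.0455). Without Mcam and Pdgfrb the other 8 summed to 1.55 to 6.15 FPKM in si-circCpsf6 and 1.20 to 6.02 FPKM in si-NC, which overlapped. Rgs5, Kcnj8, Abcc9, Cspg4 and Myh11 of the same list were at most 0.18 FPKM in any library, and Kcnj8 was at 0 in all of them. The 7 fibroblast markers, Pdgfrb included, summed to 5.53 to 11.6 FPKM in si-circCpsf6 and 2.54 to 10.6 FPKM in si-NC. The sums of 6 markers each were 0.12 to 1.69 FPKM in si-circCpsf6 and 0.31 to 0.65 FPKM in si-NC for astrocytes, 1.5 to 3.16 FPKM in si-circCpsf6 and 3.19 to 4.05 FPKM in si-NC for oligodendrocytes and Schwann cells, and 0.23 to 2.88 FPKM in si-circCpsf6 and 0.26 to 0.85 FPKM in si-NC for blood cells. Whether the Mcam, Pdgfrb and Tek mRNA came from separate cells, and whether such cells had a part in the receptor results, was not tested.

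Of the ligands, Jag2 carried most of the mRNA and did not differ detectably. Jag2 read 6.38, 6.16 and 6.69 FPKM in si-circCpsf6 and 7.71, 4.40 and 6.11 FPKM in si-NC, so the si-circCpsf6 values lay within the range of si-NC. Its log2 fold change on log2(FPKM + 1) was 0.09 ± 0.19 (SE; limma adjusted p = 0.822), and it turned to -0.087 without si-NC replicate 2, the lowest value of its group. It made up 73.9 ± 0.59% of the summed FPKM of the 4 ligands in si-circCpsf6 and 83.5 ± 9.08% in si-NC (SD, n = 3 each). Jag1, its paralogue and a major ligand in many tissues, read 0.22, 0.17 and 0.22 FPKM in si-circCpsf6 and 0.24, 0.13 and 0.03 FPKM in si-NC, again overlapping (log2(FPKM + 0.1) fold change 0.48, limma adjusted p = 0.673).

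Dll1, the main Delta-like ligand of neural progenitors, read 1.08, 1.79 and 1.53 FPKM in si-circCpsf6 and 0.47, 1.18 and 0.93 FPKM in si-NC. Its values overlapped between the groups because si-NC replicate 2 lay above si-circCpsf6 replicate 1, although in each group replicate 2 was highest and replicate 1 lowest. The log2 fold change was 0.42 ± 0.21 (SE) and did not pass the test (limma adjusted p = 0.327). Dll3 is a divergent ligand that in mouse does not activate receptors on neighbouring cells. It read 0.88, 0.26 and 0.66 FPKM in si-circCpsf6 and 0.02, 0.27 and 0.06 FPKM in si-NC. Only the replicates numbered 2 met, at 0.26 FPKM in si-circCpsf6 and 0.27 FPKM in si-NC, while the other 2 libraries of each group lay far apart. The means of Dll3 were 0.60 ± 0.31 FPKM in si-circCpsf6 and 0.12 ± 0.13 FPKM in si-NC (SD, n = 3 each), a ratio of 5.14. The authors' deposited table gives it a log2 fold change of 2.37 and a q-value of 0.07, and in the limma fit on log2(FPKM + 0.1) its log2 fold change was 1.75 ± 0.59 (SE; adjusted p = 0.209).

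Of the HES and HEY genes, Hey1 had the smallest p of the tested members. Hey1 encodes a repressor induced by Notch in vessels, heart and neural tissue. It read 2.60, 3.68 and 2.58 FPKM in si-circCpsf6 and 1.62, 1.54 and 1.87 FPKM in si-NC, and all si-circCpsf6 values were the higher ones. The log2 fold change was 0.55 ± 0.17 (SE), with an unadjusted p of 0.0115 and a limma adjusted p of 0.128. Hes6 read 11.99, 11.17 and 10.65 FPKM in si-circCpsf6 and 7.41, 5.76 and 10.23 FPKM in si-NC. Its groups were apart by a narrow gap, since the lowest si-circCpsf6 value was 10.65 FPKM and the highest si-NC value 10.23 FPKM, and the log2 fold change of 0.51 ± 0.19 (SE) did not pass the test (limma adjusted p = 0.199). So 2 of the 4 tested members had groups apart with si-circCpsf6 higher, as had 12.8% of the 12974 tested genes.

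Hes1, the canonical Notch target and oscillator of neural progenitors, was close to absent. It was listed at 0.05, 0 and 0.18 FPKM in si-circCpsf6 and at 0 in all 3 si-NC libraries. No fold is given against a group at 0, and the log2 fold change of 9.57 in the authors' deposited table has a p-value of 1 beside it. Of 72 ribosomal protein genes, which every cell uses, 0 were listed at 0 in any library. That does not tell whether a 0 of a gene as low as Hes1 is a true absence, since the depth is unknown.

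By their profile over the 6 libraries, the tested genes most like Hey1 were Slc39a13, which encodes a zinc transporter, Mast2, a kinase gene, and Mboat7, an acyltransferase gene. Likeness was the Euclidean distance between log2(FPKM + 1) profiles centred on their own means, and it was 0.077, 0.174 and 0.187. Slc39a13 read 2.97, 4.12 and 3.10 FPKM in si-circCpsf6 and 1.88, 1.79 and 2.05 FPKM in si-NC, with replicate 2 highest in the first group and lowest in the second, as in Hey1.

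The other pathway genes were taken from 8 lists by role, 75 names in all, of which 74 were matched and 48 passed the filter. None of the 48 was called in either direction by limma over all genes, and 10 had an unadjusted p under 0.05, where 20.3% of all tested genes had one. The fold change was above 0 in 22 of the 48, with a median of -0.03, as against 6128 of 12974 and a median of -0.02 over all tested genes. The groups were apart with si-circCpsf6 higher in 4 (Lfng, Furin, Aph1b and Mib2) and with si-circCpsf6 lower in 7 (Pofut1, Adam17, Neurl1a, Dtx2, Maml1, Kat2b and Tle4). Over all tested genes the groups were apart with si-circCpsf6 higher in 12.8% and lower in 14%. By count and median these 48 genes lay close to all tested genes. Of these lists, Notch4, Aph1c, Nrarp, Maml2, Tle1 and Tle2, at a mean of 0.1 to 1 FPKM, were apart with si-circCpsf6 higher. In that range the groups overlapped in Dll4, Dlk2, Hes2, Hes5, Hes7, Hey2, Id2 and Id4. Dlk1 and Dner, with means under 0.1 FPKM, were apart and higher as well. No gene of the lists below the filter was apart and lower. Of all genes with a mean of 0.1 to 1 FPKM, 8.53% were apart and higher. Dlk1 and Dner were too low for the second fit. In the authors' deposited table Lfng, Notch4, Hes7, Aph1c, Maml2 and Tle2 are marked significant and higher. That mark is on 2.01% of genes with any value above 0.

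Within the lists, single genes stood out in both directions without passing the test. Lfng, a Fringe glycosyltransferase that alters which ligands a Notch receptor answers to, read 3.85, 2.42 and 3.43 FPKM in si-circCpsf6 and 2.07, 0.59 and 0.67 FPKM in si-NC, with the groups apart (log2 fold change 1.06 ± 0.28, SE; limma adjusted p = 0.101). Pofut1, which adds the fucose that Fringe enzymes extend, was on the lower side at 2.86 ± 0.51 FPKM in si-circCpsf6 and 4.06 ± 0.41 FPKM in si-NC (SD, n = 3 each; limma adjusted p = 0.209). Among genes of receptor cleavage, the gamma-secretase subunit gene Aph1b was at 8.22 ± 0.47 FPKM in si-circCpsf6 and 5.77 ± 0.24 FPKM in si-NC (SD, n = 3 each; limma adjusted p = 0.103). The protease gene Adam17 was at 3.31 ± 0.90 FPKM in si-circCpsf6 and 5.79 ± 0.60 FPKM in si-NC (limma adjusted p = 0.107).

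Of the ubiquitin ligases that prepare ligands for endocytosis, Mib2 was at 11.2 ± 1.74 FPKM in si-circCpsf6 and 7.88 ± 1.42 FPKM in si-NC (SD, n = 3 each; limma adjusted p = 0.192). Neurl1a, another of them, was at 7.85 ± 1.61 FPKM in si-circCpsf6 and 10.95 ± 0.70 FPKM in si-NC (limma adjusted p = 0.183). Members of the Deltex family, which act on receptor traffic, lay on opposite sides. Dtx3 was at 65.0 ± 18.1 FPKM in si-circCpsf6 and 40.9 ± 9.10 FPKM in si-NC with overlapping groups (limma adjusted p = 0.189), and Dtx2 at 2.65 ± 0.09 FPKM in si-circCpsf6 and 3.48 ± 0.14 FPKM in si-NC (limma adjusted p = 0.253).

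In the nuclear complex 3 of 17 tested genes were above 0, against 6128 of 12974 over all tested genes. The median log2 fold change was -0.08. Of the 20 matched genes of this list, only Maml2, Tle1 and Tle2 lay below the filter. All of them had groups apart with si-circCpsf6 higher, where 8.53% of all genes with a mean of 0.1 to 1 FPKM had. Rbpj, named for its role as the DNA-binding partner of the receptor's intracellular domain and not by its p, was at 2.59 ± 0.50 FPKM in si-circCpsf6 and 2.91 ± 0.72 FPKM in si-NC (SD, n = 3 each; limma adjusted p = 0.780). Maml1, a Mastermind-like co-activator, was at 5.77 ± 0.38 FPKM in si-circCpsf6 and 8.47 ± 0.65 FPKM in si-NC, with the groups apart (limma adjusted p = 0.0970). Kat2b, an acetyltransferase gene, was at 7.82 ± 1.89 FPKM in si-circCpsf6 and 12.95 ± 2.05 FPKM in si-NC, also apart (limma adjusted p = 0.121). Maml2, a paralogue of Maml1 below the filter that was singled out only once its values were known, read 1.11, 0.72 and 1.48 FPKM in si-circCpsf6 and 0.35, 0.43 and 0.38 FPKM in si-NC. It lay on the opposite side to Maml1, and its log2 fold change on log2(FPKM + 0.1) was 1.26 ± 0.34 (SE; limma adjusted p = 0.145).

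The further receptors, ligands and HES or HEY genes, 11 in all, lay below the filter. Hes7, the oscillator of somite formation, read 0.83, 0.22 and 0.84 FPKM in si-circCpsf6 and 0.30, 0.04 and 0 FPKM in si-NC (limma on log2(FPKM + 0.1), adjusted p = 0.230). Hes5, a Notch target of neural stem cells, was at 0.43 ± 0.19 FPKM in si-circCpsf6 and 0.33 ± 0.18 FPKM in si-NC (SD, n = 3 each), and the groups overlapped. Dlk2, a ligand-like gene, was at 0.27 ± 0.16 FPKM in si-circCpsf6 and 0.45 ± 0.19 FPKM in si-NC and overlapped too. Hes3 was at 0 in all 6 libraries. In Notch3, Notch4, Dll3, Hes7 and Lfng alike, replicate 2 was the lowest si-circCpsf6 library, a likeness seen after the fact, whereas in Hey1 and Dll1 it was the highest.

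Proneural factors of the Neurogenin, NeuroD and Atonal families were at or near 0 where read. Neurog1, Neurog3, Neurod2, Neurod4 and Atoh1 were at 0 in all 6 libraries, and Neurog2 and Neurod1 had 1 value above 0 each, 0.03 FPKM in si-circCpsf6 replicate 1 and 0.16 FPKM in si-circCpsf6 replicate 3. E-protein partners were present, among them Tcf4 at 5.98 ± 0.91 FPKM in si-circCpsf6 and 7.86 ± 1.08 FPKM in si-NC (SD, n = 3 each; limma adjusted p = 0.274). Id1, an inhibitor of such factors, was at 8.37 ± 2.86 FPKM in si-circCpsf6 and 5.31 ± 1.88 FPKM in si-NC with overlapping groups (limma adjusted p = 0.296).

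**Figure D3:**
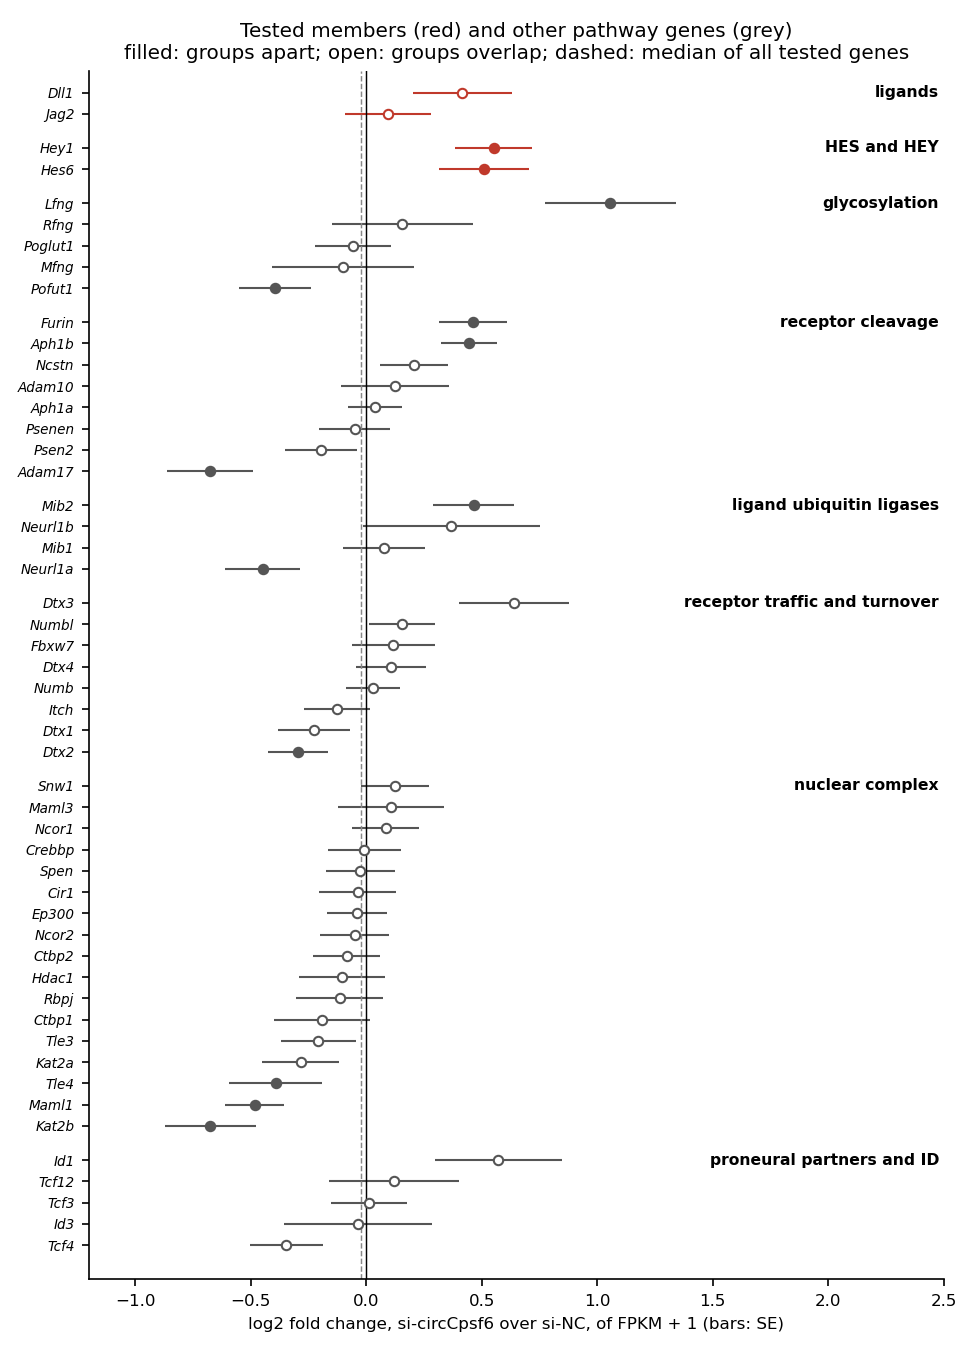
Log2 fold change of FPKM + 1, si-circCpsf6 over si-NC, for the 4 tested members (red) and 47 of the other pathway genes (grey), with bars for the SE, filled points where the 3 values of each group do not overlap and a dashed line at the median of all tested genes. The members lie at 0.09 to 0.55, while 3 of 17 genes of the nuclear complex lie above 0 and Kat2b is the lowest of those 17 at -0.67.

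A sequence shared by many genes that were lower in si-circCpsf6 was looked up in the 3' untranslated regions (UTRs) of the members, because an earlier search of these same data had found it, so its share there is no independent evidence. The heptamer GCAGAAT stood in the longest annotated 3' UTR of 46.3% of 95 genes called lower and of 10.8% of 10573 other tested genes. All 10 members had a 3' UTR, of 368 to 2917 bases, and 1 of them, Notch1, held the heptamer. The site of Notch1 (chr2:26458393-26458421, minus strand, GRCm38) is shown with the heptamer in capitals, and the base after it is an A.
Notch1: atacgcctgtgGCAGAATaagtatctgta

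Notch1 read 0.15 ± 0.08 FPKM in si-circCpsf6 and 0.097 ± 0.035 FPKM in si-NC, so the only member with the heptamer was not lower on average, at a level close to 0. Of the 48 tested pathway genes 6 held it (12.5%), among them Adam17, Mib1, Dtx2, Rbpj and Tcf4. Their median log2 fold change was -0.20, against -0.02 for the 42 without it. Below the filter the heptamer also stood in Maml2, Aph1c and Dlk1, all with groups apart and si-circCpsf6 higher, and in Heyl, with overlapping groups. Adam17 and Dtx2 are 2 of the 7 pathway genes that were lower with groups apart, and Maml1 and Kat2b, also lower with groups apart, did not hold it.

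Reads of some members could be shared with overlapping genes of the annotation. Notch3 overlaps exons of the antisense gene Gm17276, which read at most 0.10 FPKM in si-circCpsf6 and 0.16 FPKM in si-NC. Notch1 overlaps 0610009E02Rik on the other strand, at up to 0.20 FPKM in si-circCpsf6 and 0.15 FPKM in si-NC, close to the level of Notch1 itself. Notch2 shares exon sequence with Gm42820, at up to 0.07 FPKM in si-circCpsf6 and 0.03 FPKM in si-NC, and Dll1 with the opposite-strand gene A930024N18Rik, which was not analysed here. No source used here says whether reads were counted by strand, so these pairs cannot be told apart in the FPKM values. The table holds 0 pseudogenes named for a member.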

How the data were processed

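RNA was extracted with Trizol and libraries were made for Illumina sequencing, per the labels' protocols, which name a small RNA kit (TruSeq) for these mRNA libraries. What that means for the FPKM values is not stated. The submitters' processing notes list Bowtie 0.12.2, and mm8 with mm9 as builds, saying nothing of their roles. The authors deposited FPKM per gene and library, per the file headers, and beside them their fold change as a ratio, its log2, p-values and q-values. No source used here names the program behind FPKM or the authors' test. Rows marked significant in the deposited table have p-values up to 0.05 and a log2 fold change of 1 or more in size.

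Groups and replicate numbers came from sample titles. Genes averaging 1 FPKM or more were tested with limma 3.58.1 (R 4.3.3) on log2(FPKM + 1), fitting the 2 groups without covariates and with the trend option, and with Benjamini-Hochberg adjustment over all 12974 genes. This scale understates changes of low genes. A second fit used a pseudocount and minimum of 0.1. Members, gene lists and the naming rule (all members, and from each other list the called genes or else the 2 with the smallest p) were chosen with earlier results of these data known, and genes outside the rule are named as part of a count of groups apart or as stated. Positions and 3' UTRs came from GENCODE M21 (GRCm38), matched by identifier, which held 55144 of those in the table. Alternatives are listed in the closing section. Python 3.11.15 was used for sequences and figures. A few genes of the lists are counted in the totals but not reported here by name.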

Additional observations from a re-analysis of the deposited data

How the results depend on the processing

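Depth is unknown, so counting error of low genes could not be given, and 6 of the 10 members lay below the filter at 1 FPKM. Counts over all genes moved with the setting, from 117 higher and 102 lower to 4 and 9 with no filter, 6 and 5 with the replicate number as a block, 40 and 38 with the minimum and pseudocount of 0.1 (added after the values were seen) and 495 and 321 by the authors' q-values. With 1 library left out, 1 to 43 were called higher and 2 to 44 lower. The count of members called higher was 0 in every own fit, median centring, quantile normalization, a pseudocount of 0.1, a minimum mean of 5 FPKM and limma without trend included, and 1 (Notch3) by the authors' q-values. The count of members called lower was 0 under all of them.

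Of 104 values of single members under alternatives, 102 kept their direction and their side of the threshold. The exceptions were Notch3, called by the authors' q-value (log2 fold change 3.41), and Jag2, whose log2 fold change was -0.087 without si-NC replicate 2 (range 0.067 to 0.26 without 1 of the others). With 1 library left out, the log2 fold change was 0.43 to 0.62 for Hey1, 0.33 to 0.70 for Hes6, 0.26 to 0.54 for Dll1, and 1.41 to 2.22 for Dll3 on log2(FPKM + 0.1), none of them past the test. The cause of these differences was not tested. With the replicate block the adjusted p was 0.173 for Hey1, 0.210 for Hes6, 0.233 for Dll1 and 0.158 for Notch3 on log2(FPKM + 0.1). Same-numbered libraries of the groups correlated at 0.103, 0.129 and 0.084 in their deviations from the group means. Each correlated best with its own number, which is a weak hint from the data that the design does not state. For si-circCpsf6 replicate 3 it was nearly a tie, at 0.078 with si-NC replicate 1.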
